A study of Equus caballus with 6 samples.

Results

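Long secondary-type sequences are here the small RNAs of 29 to 32 nt that carry A, C or G at position 1 and A at position 10, counted from the 5′ end. The choice used only length and these 2 bases, and 127351 of the 4936717 distinct sequences called as piRNAs by the authors met it. They held 421809 of 17914237 reads. The counts came from testes of Mongolian horses, in 3 immature and 3 mature libraries, without any treatment or genotype in the labels. Neither age nor stage of spermatogenesis is labelled, and separate animals are not stated, so p-values measure the spread between libraries, which may be technical. Each library began from whole-testis RNA, in which more cells of a type and more of an RNA per cell cannot be told apart.

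piRNAs guide PIWI proteins, which silence transposons in the germ line and cut complementary transcripts. In the ping-pong cycle, a PIWI protein guided by a piRNA that begins with U cuts its target opposite the guide's bases 10 and 11, and the cut end becomes the 5′ end of a secondary piRNA. Guide and product then overlap by 10 nt, and the product has A at position 10, opposite the first U of the guide. In mammals the PIWI proteins bind piRNAs of different length, MILI shorter ones and MIWI or MIWI2 longer ones, and testis at pachytene also makes abundant piRNAs from dedicated clusters with little ping-pong.

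The most abundant members at distinct 5′ ends, over both groups, are shown first because they carried a large part of the reads. Capitals mark bases 1 to 10, the stretch that a ping-pong partner would pair with; A at the end of the capitals was set by the choice.
uniq_4217921: CCAGTGTGAAttctctgacgttgaatgagc
uniq_2060628: CATTTATTGAgtgtctactgtgtgcttct
uniq_4009082: AATGAATGAAtgaatgagtgaatgaaggc
uniq_4490482: ACAGTTGGAAttcccagaaactctgtgagc
uniq_2766432: GCACTCAGTAagtgttgaactcaaaccagg
uniq_4014347: CCGCCTGGGAataccgggtgctgtaggcc
uniq_2092293: CCATTTTACAgatgcagaaactgatgctc
uniq_1852550: CTAGAAGTCAggtgttcagttgctctgaga

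The remaining members called higher in mature testis and shown for their level were these, with the same use of capitals. The first has the 5′ end of uniq_2060628, and the second begins 1 nt upstream of uniq_4490482.
uniq_5025633: CATTTATTGAgtgtctactgtgtgcttctc
uniq_4278974: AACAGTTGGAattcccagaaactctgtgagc
uniq_2037858: CAGGTCCTAAcatggtagagaactctgttg
uniq_4788513: ATCTGTTGCAgtcagaggaactgagcacc

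Among members called higher in immature testis, uniq_4014347 was followed in level by these.
uniq_268672: ACAGACTGTAgaagatgccaatagctctc
uniq_4835667: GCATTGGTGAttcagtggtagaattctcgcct
uniq_3858042: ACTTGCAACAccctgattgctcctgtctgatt
uniq_2332510: CGCTGAAGTAgaacttctgctctgccgtg
uniq_3672082: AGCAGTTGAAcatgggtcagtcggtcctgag

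The members took a larger part of the called piRNA reads in mature testis. They made up 1.70%, 1.57% and 1.77% of the reads in the immature libraries and 2.60%, 2.77% and 2.56% in the mature ones. The means were 1.68% ± 0.105 and 2.64% ± 0.115 (SD, n = 3 each), and the groups did not overlap. Without the 100 members with the most reads the difference of the means was 0.293 in place of 0.959 percentage points. Over distinct sequences, their share went from 1.88% ± 0.0923 to 3.15% ± 0.0238 (SD, n = 3 each).

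This direction depended on what the members were set against. Of all reads of 29 to 32 nt, members were 4.69% ± 0.640 in immature testis and 3.70% ± 0.159 in mature testis, the opposite order. Of the long reads without U at position 1, they made up 12.3% ± 2.86 and 40.8% ± 4.84. Of the distinct long sequences without U at position 1, they made up 44.7% ± 1.69 and 37.8% ± 0.456 (SD, n = 3 each for these shares). The immature reads of the long class with neither U at position 1 nor A at position 10 were concentrated in sequences beginning with G, at 84.4% ± 4.36 of that class, against 23.8% ± 1.33 of its distinct sequences. A single sequence of that class, uniq_2076883, shown further below, had 44883, 142086 and 52023 reads in the immature libraries.

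The shorter sequences of the same type went the other way. Sequences of 25 to 28 nt with A at position 10 and no U at position 1, which numbered 202602, were 4.25% ± 0.0971 of all immature reads and 1.80% ± 0.110 of all mature reads (SD, n = 3 each), with no overlap between groups. Of all reads of 25 to 32 nt with these 2 bases, the long ones were 28.4% ± 0.811 in immature testis against 59.5% ± 0.695 in mature testis. Among sequences with neither base feature, the long part was 66.0% ± 7.16 and 66.5% ± 4.66, which overlapped. The long reads of that class include those of uniq_2076883, and the part without it was not computed. Among sequences with U at position 1 and no A at position 10, the long part was 29.3% ± 1.30 and 71.5% ± 1.01. The rise in the long part was thus not particular to sequences with A at position 10. Long sequences with both U at position 1 and A at position 10 went from 6.49% ± 0.434 to 19.4% ± 0.365 of all reads.

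Depth differed between the groups. The libraries held 1382083, 2347351 and 1462339 reads in immature and 4139452, 4032042 and 4550970 reads in mature testis. In CPM, the reads scaled to a common table total, a count of 0 thus allows up to 2.17, 1.28 and 2.05 in immature and 0.725, 0.744 and 0.659 in mature testis. These limits, like any interval on read shares, cover counting error only. The numbers of distinct members were 16729, 23202 and 17573 against 36230, 35221 and 35963. Thinned to 1382083 reads per library they became 16729, 14313 and 16691 against 15387, 15411 and 14415, which overlapped.

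Length separated the groups within the members. At 29 nt, the shortest length chosen, members took 0.982% ± 0.0639 of all reads in immature testis against 0.984% ± 0.0502 in mature testis. At 30 nt they took 0.382% ± 0.0286 and 0.955% ± 0.0558, and at 31 nt 0.251% ± 0.0190 and 0.605% ± 0.0645 (SD, n = 3 each for these lengths). The groups did not overlap at 30 or 31 nt and overlapped at 29 nt. At 32 nt the shares were small, 0.0663% and 0.0968%.

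Just outside the chosen range, sequences of 28 nt with the same 2 bases took 0.778% ± 0.0446 in immature testis against 0.780% ± 0.0624 in mature testis. A single sequence made up much of the mature value. uniq_2089930, of 28 nt, is uniq_2060628 without its last base.
uniq_2089930: CATTTATTGAgtgtctactgtgtgcttc
It had 133, 1270 and 417 reads in the immature libraries and 19953, 18132 and 18398 in the mature ones. This was 57.1% ± 1.24 of the mature reads of 28 nt with these bases. Without it, that class took 0.747% ± 0.0668 and 0.334% ± 0.0265 of all reads (SD, n = 3 each), and the groups no longer overlapped.

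C was the most common first base among the 3 that the choice allows. Of the member reads, 45.0% ± 3.24 began with C in immature testis against 49.7% ± 0.137 in mature testis. A began 35.9% ± 2.58 and 28.2% ± 0.123, and G began 19.1% ± 0.759 and 22.1% ± 0.145 (SD, n = 3 each). None of these 3 shares overlapped between the groups. Of the distinct members, 37.1% ± 0.399 began with A in immature testis against 30.2% ± 0.0888 in mature testis. G began 19.9% ± 0.198 and 26.2% ± 0.157, and C 43.0% ± 0.593 and 43.6% ± 0.241. The shifts in A and G were thus present with each sequence counted once, while the shares of C overlapped. Of the distinct long sequences with neither U at position 1 nor A at position 10, A began 30.4% and 25.7%, and G 23.8% and 29.6%.

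Reads were spread over very many members, most of them rare. Of the 127351 members, 97623, or 76.7%, had a single read in all libraries together, against 77% in the whole table; 3970 had at least 10 and 33 at least 1000. In all 6 libraries 332 members, or 0.261%, were found, against 0.348% of the table. In mature testis alone 75859 members, or 59.6%, were found, against 45.3% of the table, and in immature testis alone 45412, or 35.7%, against 48.4%. The low counts do not show absence from the other group for most of them. The 100 most abundant members of each library held 18.3% ± 3.78 of its member reads in immature testis against 33.9% ± 2.54 in mature testis (SD, n = 3 each). When members with the same first 20 bases were joined, 86842 5′ ends remained, of which 17205 had more than 1 member. Members of one 5′ end share their source and are not independent.

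The 5′ ends of the members were also read at shorter lengths. All sequences of 25 to 32 nt that shared bases 1 to 25 with a member were counted together. Of these reads, 29 to 32 nt made up 52.8% ± 1.61 in immature testis against 65.2% ± 0.865 in mature testis, and the mean lengths were 28.37 ± 0.0383 nt and 29.01 ± 0.0320 nt. The part of 27 nt was 20.3% ± 0.565 in immature and 10.1% ± 0.441 in mature libraries, while that of 30 nt was 12.01% ± 0.642 and 23.6% ± 0.829 (SD, n = 3 each), with no overlap between groups. Most of the 90040 ends joined in this way were read in 1 group only, so these shares compare largely different ends. The 9836 ends read in both groups had 43.3% ± 1.96 of their reads at 29 to 32 nt in the immature libraries and 60.1% ± 1.30 in the mature ones (SD, n = 3 each), again without overlap. The 776 ends read in all 6 libraries had 47.0% ± 1.86 and 56.2% ± 1.98. Without the single end of uniq_2089930, the latter had 48.2% ± 2.44 and 74.1% ± 1.69 (SD, n = 3 each). These selections of ends were added after seeing the data. By the choice, each joined end has a form of 29 to 32 nt in the table, so all these long parts were partly set in advance. An end could enter through a long read of either group, and the mature libraries were deeper. How far this moved the shares was not tested.

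At 28 nt the part of these reads went from 13.1% ± 0.406 to 17.98% ± 1.08, against the order at 26 and 27 nt. Without the 5′ end of uniq_2089930 it was 12.3% ± 0.357 and 6.98% ± 0.410 (SD, n = 3 each), and the order at 28 nt turned. Long sequences with U at position 1 and A at position 10, also joined through a long form, had the same kind of change. Of their joined reads, 46.5% ± 1.17 in immature and 78.6% ± 0.734 in mature testis were 29 to 32 nt. Members that had any form of 25 to 28 nt held 58.0% ± 3.78 of the member reads in immature testis against 76.3% ± 1.64 in mature testis. The shorter forms were sought in the whole table, so the greater depth of the mature libraries can raise their share. Values at equal depth were not computed.

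The 3′ ends varied at fixed length as well. Members for which another sequence of the table differed in the last base alone numbered 27799. They held 40.3% ± 5.30 of member reads in immature testis against 64.5% ± 1.41 in mature testis. The variants were sought in the whole table, to which the deeper mature libraries gave more reads. Depth can thus raise the mature share, and values at equal depth were not computed. The last base of member reads was T in 32.01% ± 2.59 and 32.6% ± 0.445, C in 31.6% ± 3.48 and 35.1% ± 1.40, and G in 15.2% ± 0.387 and 14.5% ± 0.812 (SD, n = 3 each). A ended 21.2% ± 0.844 and 17.8% ± 0.730. The shares of A as last base did not overlap between the groups, and those of T, C and G did.

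A at position 10 stood above its neighbours among distinct long sequences without U at position 1, the class from which the choice took its members. In immature testis 44.7% ± 1.69 of them had A there, against 21.0% at position 9 and 24.5% at position 11. The highest share at any other position from 3 to 25 was 28.1%, at position 5. In mature testis the shares were 37.8% ± 0.456 at position 10, 21.8% at position 9, 23.1% at position 11 and 32.5% at position 5. At position 2, A was found in 37.1% of the distinct sequences in immature testis against 40.8% in mature testis, so position 10 did not stand alone there. Counted by reads, immature testis showed no peak at position 10, with 12.3% ± 2.86 there and 76.9% ± 5.56 at position 14. In mature testis reads had 40.8% ± 4.84 A at position 10 and at most 37.3% ± 6.32 at the other positions from 3 to 25. Mature replicate 1 had no peak there, with 35.6% at position 10 against 44.4% at position 20, 41.3% at position 14 and 38.5% at position 3. A single long sequence without U at position 1, uniq_2076883, has A at positions 3, 14, 20, 22 and 23 and G at position 10. It had 44883, 142086 and 52023 reads in the immature libraries and 31410 in mature replicate 1. The shares by reads without this sequence were not computed.

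Bases that the choice did not fix also differed from the long class with neither feature, which numbered 192231 sequences. All members have the fixed A and no sequence of that class does, so the choice can bear on the bases beside it. T at position 9, just before the fixed A, was found in 22.9% ± 0.702 of distinct members against 39.8% ± 0.279 of that class in immature testis. In mature testis the shares were 18.3% ± 0.0797 and 38.4% ± 0.354. C at position 8 was in 12.7% ± 0.737 against 20.9% ± 0.238 in immature and 12.6% ± 0.445 against 21.9% ± 0.289 in mature testis (SD, n = 3 each). C at position 9 went the other way, in 29.1% ± 0.743 against 18.5% ± 0.0233 in immature and 27.5% ± 0.307 against 19.6% ± 0.0933 in mature testis. The lower shares just upstream of the fixed A were thus those of T at position 9 and C at position 8.

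Other bases were more common in members. T at position 6 was in 42.8% ± 0.417 against 33.7% ± 0.283 in immature and 40.1% ± 0.598 against 30.2% ± 0.175 in mature testis. G at position 11 was in 32.1% ± 0.292 against 23.8% ± 0.433 and in 32.99% ± 0.201 against 23.7% ± 0.0641 (SD, n = 3 each). GC content of distinct members was 48.3% ± 0.266 in immature testis against 48.2% ± 0.0274 in mature testis, and by reads it was 49.2% ± 0.631 and 46.8% ± 0.145. These positions were picked after the shares were seen, and the differences are given without a test. The choice can bear on G at position 11 as well, since it stands beside the fixed A. Shares for the other classes with that A are not given here. Whether these base shares are particular to members was not tested.

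A share of the members was 1 base away from a much more abundant sequence with U at position 1. There were 5970 members that became a sequence with at least 10 times their reads when their first base was replaced by T, the letter that stands for U in the table. They held 0.321% ± 0.157 of member reads in immature testis against 6.37% ± 0.327 in mature testis (SD, n = 3 each). In the long class with neither feature, the corresponding reads were 0.142% ± 0.0891 and 10.7% ± 1.99. For position 10 there were 65 such members. Whether such neighbours are reading errors, variants or separate loci was not tested. Without members of both kinds, the members' share of all reads was 1.67% ± 0.106 and 2.47% ± 0.113, again with no overlap.

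The most abundant of these was uniq_4630187, shown with its neighbour and with the first base in capitals.
uniq_4630187: Gatgactaaaactgactggagggctggtt
uniq_1435444: Tatgactaaaactgactggagggctggtt
Counted from 1 at the 5′ end, the substitution from neighbour to member was T1G. The member had 1, 0 and 0 reads in the immature libraries and 143, 161 and 147 in the mature ones. The neighbour had 53, 285 and 162 reads against 5683, 6138 and 8603. The rare G form was thus read in each mature library beside the abundant T form.

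Ping-pong partners were sought first by letters alone. A partner was any sequence of the same library whose bases 1 to 10 were the reverse complement of bases 1 to 10 of the member. Because the choice puts A at position 10 and excludes T at position 1, a partner always begins with T and never has A at position 10; neither is a finding. Of the member reads, 87.2%, 94.7% and 83.6% had a partner in the immature libraries and 93.3%, 91.4% and 92.5% in the mature ones. Such shares are high by construction, since the libraries already used 51.7% to 61.0% of all 10-letter words that begin with T.

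Windows moved downstream by 1 to 5 nt, taken only where they too ended in A, gave the background. The share at the true window exceeded their mean by 4.49, 3.93 and -3.64 percentage points in the immature libraries and by 7.53, 10.6 and 7.31 in the mature ones. In each immature library a moved window still lay above the true one, at up to 90.41%, 94.80% and 92.57% against 87.18%, 94.74% and 83.64%. In the mature libraries no moved window did. The mean excess was 1.59 ± 4.54 and 8.48 ± 1.83 (SD, n = 3 each), a difference of 6.88, which was 4.27 without immature replicate 3. With each distinct sequence counted once, the excess was 6.36 ± 0.862 and 6.49 ± 0.116, which overlapped. A difference between the groups was therefore seen in reads and not in distinct sequences. Over distinct sequences the true window was the highest in each library, though by little. The window moved by 5 nt had a mean of 90.3% against 90.9% in immature and 86.5% against 88.5% in mature testis.

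A stricter search used sequences of the table that spanned a member's 5′ end. Where such a sequence, on either strand, held 10 nt upstream of the member followed by its bases 1 to 15, the upstream bases were known. A bridged partner had to match the antisense strand across its first 15 bases, so 5 bases beyond the 10 nt overlap. Upstream bases were known for 68761 members, and 29893 of these had a bridged partner somewhere in the table. Members with known upstream bases covered 63.2% ± 2.42 of the member reads in immature testis against 75.1% ± 0.921 in mature testis (SD, n = 3 each). The spanning sequences came from the whole table, and these shares were not computed at equal depth.

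With each distinct sequence counted once, 10 nt was the overlap with the highest share in each of the 6 libraries. In the immature libraries 35.8%, 37.1% and 36.2% of the bridged members had a partner in the same library at 10 nt, and in the mature ones 26.5%, 28.6% and 28.2%. The other overlaps from 5 to 14 nt, taken where the member had A at the matching base, had means of 28.6% and 21.5%. The highest of these were 33.5% at 7 nt in immature and 24.3% at 13 nt in mature testis. The excess at 10 nt was 7.78 ± 0.897 and 6.24 ± 0.235 percentage points (SD, n = 3 each). As a difference it was smaller in mature testis, where the background at the other overlaps was lower too.

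By reads the order of the groups turned. The share at 10 nt was 43.6%, 43.1% and 38.2% in the immature libraries and 54.0%, 57.0% and 54.5% in the mature ones. The excess was 5.20, 6.39 and 4.54 against 17.2, 20.9 and 18.03 percentage points, with no overlap between groups. However, 10 nt was not the highest overlap by reads: 12 nt gave 46.1% ± 3.59 in immature and 9 nt gave 64.6% ± 6.53 in mature testis (SD, n = 3 each). Without the 100 members with the most reads, the difference between the groups' excesses was 2.95 in place of 13.3 percentage points.

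Related classes showed their own excess. For sequences of 25 to 28 nt with A at position 10 and no U at position 1, it was 7.94 ± 0.755 and 6.80 ± 0.359 over distinct sequences. For long sequences with both U at position 1 and A at position 10, it was 13.4 ± 0.608 and 10.8 ± 0.739 (SD, n = 3 each). Library by library, the members' excess over distinct sequences overlapped that of their shorter counterparts and was below that of long sequences with both features in each group. By reads, the mean excess of the shorter class was 7.24 ± 0.807 in immature and 33.2 ± 3.07 in mature testis, above the members' 18.7 ± 1.93 in the latter. That of long sequences with both features was 16.5 ± 2.39 and 16.8 ± 1.41 (SD, n = 3 each), which overlapped between the groups. In the shorter class, too, 10 nt was not the highest overlap by reads. In immature testis 13 nt gave 40.79% against 39.93% at 10 nt, and in mature testis 6 nt gave 86.31% against 68.97%. The shorter class includes uniq_2089930, and its excess without that sequence was not computed. In the long class with neither feature no overlap of 10 nt with a partner beginning in T can occur.

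Bridged partners followed the length of the pool. They took 2.97% ± 0.115 of all reads in immature testis against 5.61% ± 0.291 in mature testis, with no overlap. Of their reads, 32.2% ± 2.47 were 29 to 32 nt in immature testis against 71.7% ± 0.483 in mature testis. Among all sequences that begin with T and lack A at position 10, 29.3% ± 1.30 and 71.5% ± 1.01 were of that length (SD, n = 3 each). In mature testis the length shares of partners and of the pool they come from overlapped.

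Changes of single members were tested with edgeR's quasi-likelihood test over all sequences, with calls at p under 0.05 after Benjamini-Hochberg adjustment. Only 555 members had enough reads to be tested, with 40.1% of the member reads, at 357 5′ ends. With TMM scaling, 97 members, or 17.5% of those tested, were called higher in mature testis, where 8.41% of all sequences tested were. Another 111, or 20%, were called higher in immature testis, against 21.9% of all. A member that passed only through the group where it is high had to differ, so these counts describe the tested members alone.

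The scaling decided most calls. With library totals, 441 members, or 79.5%, were called higher in mature testis, against 77.7% of all sequences tested, and 101, or 18.2%, lower, against 20.3%. The median log2 fold change (mature over immature) of all sequences tested was 0.62 with TMM and 3.15 with totals, and of the members 0.87 and 3.38. The TMM factors were 0.3602, 0.4419 and 0.4189 in the immature libraries and 2.405, 2.381 and 2.619 in the mature ones. For each named member the TMM log2 fold change thus lay below that with library totals. Hence each fold change below is relative to a pool that itself moved. The CPM of every mature library lay above that of every immature one for 433 of the tested members, or 78%, against 77% of all sequences tested. The opposite order was found for 102, or 18.4%, against 20.2%. These shares of members are near those of the table. Without immature replicate 1, TMM called 64 of 1029 tested members for mature and 168 for immature testis. Of all 52925 sequences tested then, 1773 and 10092 were called. Without immature replicate 3, it called 61 of 1024 tested members for mature testis, against 1773 of 52980 sequences. The members tested thus changed along with the calls.

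The calls were counted by first base and by length, each beside all tested sequences of that base or length. Of 140 tested members that began with G, 37 (26.4%) were called higher in mature and 18 (12.9%) in immature testis. Of all tested sequences that began with G, the shares were 14.9% and 55.3%. For A, 30 (16.9%) and 55 (31.1%) of 177 tested members were called, against 7.08% and 57.3% of all tested. For C, it was 30 (12.6%) and 38 (16%) of 238, against 7.1% and 38.7%. The members that began with A had more calls for immature than for mature testis, those that began with G the reverse.

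By length, the calls for mature testis took 15% to 19.7% of the tested members. At 29 nt 36 (16.4%) of the members were called higher in mature and 64 (29.2%) in immature testis, against 9.63% and 13.5% of all tested sequences of that length. At 30 nt it was 35 (19.7%) and 25 (14%), against 11.9% and 6.27%. At 31 nt it was 23 (16.7%) and 15 (10.9%), against 13.5% and 7.07%. At 32 nt, with 20 members tested, it was 3 (15%) and 7 (35%), against 12.7% and 10.2%. The differences between these classes were not tested.

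The 97 members called higher in mature testis held 8.30%, 10.3% and 9.31% of member reads in the mature libraries and at most 0.606% in an immature one. The 111 called higher in immature testis held 13.2%, 16.7% and 17.2% in the immature libraries and 1.57% to 2.03% in the mature ones. The called members thus carried a minor part of the reads of either group.

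Among members called higher in mature testis, uniq_2037858 had the largest fold of those named. Its level was 0.724, 1.70 and 3.42 CPM in the immature libraries and 108, 92.3 and 124 CPM in the mature ones. All mature libraries lay above all immature ones. The means were 1.95 ± 1.36 and 108 ± 15.7 CPM (SD, n = 3 each), 55.4-fold higher, and the TMM log2 fold change was 3.21 ± 0.75 (SE, adjusted p = 8.22e-05). The immature counts were 1, 4 and 5 reads, so the fold has a wide error. It had no bridged partner, although its upstream bases were known.

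uniq_1852550 was read at 2.17, 6.39 and 10.3 CPM in the immature libraries and 153, 267 and 190 CPM in the mature ones. The groups were well apart, with means of 6.27 ± 4.04 and 203 ± 58.2 CPM (SD, n = 3 each). The TMM log2 fold change was 2.45 ± 0.66 (SE, adjusted p = 0.001 by edgeR). It too had known upstream bases and no bridged partner. Its 5′ end was read almost only at 30 nt, with 4678 reads there and 266 at 29 nt.

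uniq_4490482 and uniq_4278974 begin 1 nt apart on the same strand. uniq_4490482 was read at 9.41, 26.4 and 46.5 CPM in the immature libraries and 330, 588 and 483 CPM in the mature ones. uniq_4278974 was read at 2.17, 5.96 and 4.79 CPM against 109, 110 and 145 CPM. Both lay higher in every mature library. Their TMM log2 fold changes were 1.53 ± 0.61 (adjusted p = 0.0427) and 2.20 ± 0.67 (SE, adjusted p = 0.0049, both by edgeR). The first call was lost without immature replicate 2 (adjusted p = 0.0611), without mature replicate 2 (adjusted p = 0.112) and without mature replicate 3 (adjusted p = 0.0508). It was also lost with a filter at 10 CPM (adjusted p = 0.237). The second was lost without immature replicate 3 (adjusted p = 0.0574).

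The forms of uniq_4490482's 5′ end were discrete. Of sequences with its first 25 bases, 9853 reads were 30 nt, 4243 were 31 nt, 3 were 29 nt and none were 28 nt. At 27 nt there were 1783 reads and at 26 nt 1115. The gap at 28 and 29 nt thus lay between 2 groups of lengths. Its bridged partners were few, 6 sequences with 43 reads, led by uniq_4948615, with at most 11 reads in a library.

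uniq_5025633 shares its 5′ end with uniq_2060628 and is 1 nt longer. It was read at 1.45, 13.6 and 3.42 CPM in the immature libraries and 73.4, 207 and 84.2 CPM in the mature ones, without overlap. Its TMM log2 fold change was 1.70 ± 0.65 (SE, adjusted p = 0.0305 by edgeR). The call was lost without immature replicate 1 (adjusted p = 0.109), without immature replicate 3 (adjusted p = 0.197) and without mature replicate 2 (adjusted p = 0.256), and with a filter at 10 CPM (adjusted p = 0.156). The 29 nt form, uniq_2060628, was read at 16.6, 231 and 52.0 CPM against 540, 1020 and 641 CPM and was not called with TMM (log2 fold change 0.37 ± 0.60 SE, adjusted p = 0.665). Immature replicate 2 stood far above the other immature libraries for both, and without it uniq_2060628 was called (log2 fold change 2.30, adjusted p = 0.022).

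The 5′ end of uniq_2060628 was read mostly below the chosen lengths. It had 64939 reads at 28 nt, 14806 at 29 nt, 2836 at 30 nt and 9294 at 27 nt. Its 10 nt partners by letters were 232 sequences with 3332 reads, of which 10 with 36 reads were bridged.

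The most abundant member, uniq_4217921, was read at 45.6, 90.7 and 73.9 CPM in the immature libraries and 686, 899 and 1020 CPM in the mature ones. The means were 70.1 ± 22.8 and 868 ± 168 CPM (SD, n = 3 each), 12.4-fold higher. With TMM it was not called (log2 fold change 1.05 ± 0.60 SE, adjusted p = 0.185 by edgeR), and with library totals it was (3.63 ± 0.76 SE, adjusted p = 3.51e-06). It was also called with DESeq2 (adjusted p = 0.000143), with upper quartile factors (0.00689) and without a filter (0.00555). Not called with TMM and the default filter, but called in each of these other settings, were also uniq_4009082, uniq_2766432 and uniq_2092293, whose mature means were 487 ± 92.4, 392 ± 110 and 276 ± 67.4 CPM (SD, n = 3 each) and whose TMM adjusted p were 0.205, 0.276 and 0.16. Immature means of these were 41.0, 36.6 and 21.5 CPM, and no library of one group overlapped the other group. Without immature replicate 2, uniq_2092293 was called (adjusted p = 0.0299).

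uniq_2766432 had the bridged partner with the most reads among the named members, shown as a pair. Capitals mark bases 1 to 10 of each, which are reverse complements.
uniq_2766432: GCACTCAGTAagtgttgaactcaaaccagg
uniq_2085146: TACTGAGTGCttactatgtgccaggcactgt
The partner had 11, 46 and 41 reads in the immature libraries and 870, 1121 and 1294 in the mature ones. The member had 19, 137 and 55 reads against 1236, 2072 and 1659. Both were higher in every mature library, and the partner was the less abundant in each library. In all, 86 bridged partner sequences with 5601 reads were found for this member.

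uniq_4217921 had the most bridged partner sequences of those named, 298, but with 1762 reads in all they were rare beside its own 11484. The leading one was read less than the member throughout.
uniq_2340949: TTCACACTGGagaaaggccttatgagt
It had 4, 11 and 8 reads in the immature libraries and 67, 93 and 81 in the mature ones, and it is 27 nt long. Of the 17 named members, 11 had a bridged partner and 6 had none.

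uniq_4009082 consists largely of a repeated word of 4 letters, so its matches by letters are of low complexity. It had 329 partners by letters with 6125 reads, of which 102 with 127 reads were bridged. The leading bridged one had 3, 2 and 1 reads in the immature libraries and none in the mature ones. Its 5′ end was read at 29 nt alone, with 6494 reads. At that length no other last base was found in the table, unlike uniq_4217921, whose C form had 2841, 3626 and 4633 mature reads and whose T form had 1385, 1530 and 1892.

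Of the members called higher in immature testis, uniq_2332510 had the largest difference among those named. It was read at 115, 82.6 and 46.5 CPM in the immature libraries and 1.21, 1.98 and 0.659 CPM in the mature ones. All immature libraries lay far above the mature ones, in which it had 5, 8 and 3 reads. The means were 81.4 ± 34.3 and 1.28 ± 0.666 CPM (SD, n = 3 each), a ratio of 63.4. The TMM log2 fold change was -8.56 ± 0.84 (SE, adjusted p = 3.58e-22 by edgeR) and that with library totals -5.95 ± 0.81 (adjusted p = 3e-12).

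It had 22 bridged partners with 34 reads, and the leading one was found in immature libraries alone, with 1, 3 and 0 reads. The word ACTTCTGCTCTG from this member occurred in 108 of the 86842 member 5′ ends, or 0.124%, and in 116, or 0.0838%, of those of the long class with neither feature. Sequences with it made up 2.43%, 2.56% and 1.44% of member reads in the immature libraries and 0.0335%, 0.0304% and 0.0344% in the mature ones. The members with this word were thus nearly all read in immature testis.

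uniq_268672 was read at 168, 70.7 and 92.3 CPM in the immature libraries and 19.8, 22.3 and 21.1 CPM in the mature ones, without overlap. The TMM log2 fold change was -5.04 ± 0.70 (SE, adjusted p = 3.74e-12 by edgeR) and that with library totals -2.38 ± 0.68 (adjusted p = 0.000516). Its leading bridged partner is shown with bases 1 to 10 in capitals, because it was lower in mature testis as well.
uniq_464313: TACAGTCTGTggttagtacacctagc
This partner had 7, 29 and 16 reads in the immature libraries and 0, 1 and 1 in the mature ones. Member and partner thus had the same order of groups. The 5′ end of uniq_268672 was most often read at 28 nt, with 2387 reads, against 1078 at 29 nt.

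The other members named as higher in immature testis have letters known from structured RNAs. By general knowledge, uniq_4014347 carries the 3′ part of 5S rRNA, uniq_4835667 the 5′ part of a glycine tRNA, uniq_3858042 the 3′ end of the U8 small nucleolar RNA, and uniq_3672082 a stretch of 28S rRNA. No horse genome or RNA sequence was used here, so these identities were not matched. None of them had a bridged partner. For uniq_4835667 and uniq_3858042 no sequence spanned the 5′ end, so that no partner could be bridged.

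uniq_4014347 was read at 132, 331 and 499 CPM in the immature libraries and 63.5, 82.8 and 60.4 CPM in the mature ones. All immature libraries were higher, although they differed among themselves by more than the mature ones did. The TMM log2 fold change was -4.77 ± 0.70 (SE, adjusted p = 4.76e-11 by edgeR) and that with library totals -2.22 ± 0.69 (adjusted p = 0.00148). With 3 reads at its 10 nt partners by letters, it had almost none.

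Its 5′ end was found nearly at 29 nt alone, with 7686 reads there and none at 28 or 30 nt. The forms that end in C, A and G were read about equally. C had 182, 776 and 729 reads in the immature libraries, A had 127, 874 and 649, and G had 104, 800 and 597. In the mature libraries they had 263, 334 and 275, then 252, 361 and 258, then 248, 365 and 222. No read of the form that ends in T, the base of mammalian 5S rRNA at that place by general knowledge, was in the table. How the called sequences were filtered is not given in the sources used here, and the role of such a filter was not tested.

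uniq_4835667 differed at its fixed A from the abundant sequence uniq_2076883, shown with base 10 in capitals.
uniq_2076883: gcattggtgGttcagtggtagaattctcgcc
The substitution from that sequence to the member is G10A, counted from 1 at the 5′ end, and all other of its 31 bases are shared. uniq_2076883 had 44883, 142086 and 52023 reads in the immature libraries and 31410, 3976 and 7689 in the mature ones. The member had 57, 210 and 265 reads against 134, 20 and 40. A further form of the member's length, T10A by the same count, had 15, 40 and 50 reads against 29, 6 and 12. The form with G at position 10 at the member's 32 nt had no read in the table.

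The member's level was 41.2, 89.5 and 181 CPM in the immature libraries and 32.4, 4.96 and 8.79 CPM in the mature ones. Mature replicate 1 lay well above the other mature libraries, for uniq_2076883 too, but below all immature ones for the member. The TMM log2 fold change was -5.31 ± 0.71 (SE, adjusted p = 4.59e-13 by edgeR) and that with library totals -2.75 ± 0.69 (adjusted p = 8.07e-05).

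uniq_3858042 had 75, 241 and 155 reads in the immature libraries and 111, 117 and 92 in the mature ones, with mean levels of 87.6 and 25.3 CPM. uniq_3672082 was read at 74.5, 44.3 and 38.3 CPM against 16.4, 11.7 and 11.6 CPM. In CPM neither overlapped between groups. Their TMM log2 fold changes were -4.36 ± 0.68 (adjusted p = 7e-10) and -4.61 ± 0.69 (SE, adjusted p = 1.27e-10, both by edgeR). With library totals they were -1.79 ± 0.66 (adjusted p = 0.00708) and -1.98 ± 0.65 (SE, adjusted p = 0.00245, both by edgeR). The 5′ end of uniq_3858042 was found at 32 nt with 924 reads and at 31 nt with 7, and at no shorter length, whereas that of uniq_3672082 had reads at every length from 25 to 32 nt.

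One member named as higher in mature testis was nearly absent from one mature library. uniq_4788513 had 4, 6 and 7 reads in the immature libraries and 385, 580 and 0 in the mature ones. Members with its 5′ end had 938, 609 and 10 reads in the mature libraries. In mature replicate 3 a count of 0 allows up to 0.659 CPM, against 93.0 and 144 CPM in mature replicates 1 and 2. The TMM log2 fold change of 2.00 ± 0.69 (SE, adjusted p = 0.0157 by edgeR) thus rested on 2 libraries.

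The call for uniq_4788513 was lost with DESeq2 (adjusted p = 0.425) and without mature replicate 2 (adjusted p = 0.205). It was also lost without immature replicate 1, 2 or 3 (adjusted p = 0.239, 0.123 and 0.0519). Its leading bridged partner, 1 of 73 with 1548 reads together, also had 0 reads in mature replicate 3. The order of mature replicates 1 and 2 was the reverse of the member's.
uniq_4001148: TGCAACAGATgtgctctgactgagatcacc
The partner had 0, 6 and 1 reads in the immature libraries and 306, 77 and 0 in the mature ones. Both sequences of the pair were therefore at 0 in mature replicate 3.

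A variant of this member that differs by A27G from it in the direction member to variant, uniq_3382840, is shown with the changed base in capitals.
uniq_3382840: atctgttgcagtcagaggaactgagcGcc
It had no reads in the immature libraries and 310, 4 and 7 in the mature ones. The ratio of member to variant thus differed between mature replicates 1 and 2. Whether the animals differ at these sequences was not tested.

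Such unevenness was counted over the table. A sequence was eligible where at least 2 libraries of a group had 30 reads or more, and uneven where the lowest library had at least 20 times fewer reads than the middle one. In mature testis 10 of 280 eligible members, or 3.57%, were uneven, against 385 of 15973 sequences, or 2.41%, in the whole table. In immature testis it was 0 of 38 members and 9 of 1591 sequences. Among the uneven members of mature testis, uniq_2981903, uniq_2981901 and uniq_4032350 share a 5′ end, so the 10 are not independent cases.

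Words of 12 letters shared by many member 5′ ends were counted on the member's own strand, in the most abundant member of each end. ATCTGTAAAATG was found in 119 of them, or 0.137%, against 13, or 0.0094%, in the long class with neither feature. ATTTTACAGATG, which uniq_2092293 carries, was found in 76 against 5. It is the reverse complement of the first word moved by 1 base, so that members came from both strands of this sequence. Both words hold an A that can stand at position 10, so that the choice itself can raise their number. Words of this kind are known from MIR, an old mammalian interspersed repeat, by general knowledge and without a match made here.

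Members with ATTTTACAGATG took 3.71%, 2.84% and 3.17% of member reads in the mature libraries and 0.157%, 0.747% and 0.274% in the immature ones, without overlap. uniq_2092293 itself was read at 7.96, 36.6 and 19.8 CPM in the immature libraries and 338, 204 and 285 CPM in the mature ones. It had 285 partners by letters, of which 20 were bridged with 110 reads. The leading one was low in each library.
uniq_2094106: TGTAAAATGGaactgaccgcagtccctcc
It had 0, 0 and 2 reads in the immature libraries and 19, 20 and 25 in the mature ones.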

How the data were processed

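Small RNA of horse testis was sequenced from 3 µg of total RNA per library, after ligation of adapters and a size cut on a gel, per the labels' protocols. The deposited values are raw read counts for each sequence in each library, per the file headers. The submitters' processing notes name Bowtie. No version, genome build or rule for calling piRNAs is stated there, so column totals are those of called piRNAs. Shares and CPM are relative to these totals, which ran from 1382083 to 4550970 reads. Each of the 6 columns entered the fits.

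The quasi-likelihood test of edgeR 4.0.16 (R 4.3.3) was run over the whole table, with TMM factors, filterByExpr and Benjamini-Hochberg adjustment over 31788 sequences. A check on simulated data changed 50 sequences at each fold, so without a shift of the pool, and cannot speak to the scaling. It called 0% of the 2-fold, 30% of the 4-fold, 62% of the 8-fold and 84% of the 16-fold changes, and 4.35% of its calls were false. The spread between simulated libraries was fixed and not estimated from these data, so these rates hold for the simulated counts alone. DESeq2 1.42.0 and other scalings, filters, weights, depths and left-out libraries were alternatives. Shares and overlaps over the members are given without p, and the smallest exact permutation p for 3 against 3 libraries would be 0.1. Other steps ran in Python 3.11.15. No 2 libraries of a group agreed within counting noise.

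The named sequences were the 8 members with the highest mean of the group means, and the 6 called higher in each group with the highest mean there, each 5′ end once per list. For each, the most abundant partner was taken. The members and lists were chosen with earlier results of these data known. No genome was used, so sequences have no positions here.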

Additional observations from a re-analysis of the deposited data

How the results depend on the processing

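The difference in the members' share of reads (0.959 percentage points, mature minus immature) became 1.27 with each sequence counted once, 0.293 without the 100 members with most reads, 28.5 as a share of long reads without U at position 1, and 0.796 without members 1 base from a U1 sequence, an alternative chosen after seeing the data. It turned to -0.993 as a share of all long reads, and ranged from 0.894 to 1.00 with each library left out. The difference in the 10 nt excess by letters (6.88) became 0.131 with each sequence counted once and 1.92 without those 100 members, and turned to -0.461 with partners from the whole table. It ranged from 4.27 to 8.33 with each library left out. The difference in the bridged excess (13.3) turned to -1.54 with each sequence counted once. It was 2.95 without those 100 members, an alternative chosen after seeing the data, and 12.3 to 14.1 with each library left out. The 97 calls higher in mature testis, of 555 members tested, became 441 with library totals and 281 with upper quartile factors. Of all 31788 sequences, 24713 and 13822 were then called, against 2672 with TMM. Without a filter beyond 6 reads 706 of 7066 members were called, against 28866 of 294186 sequences. With a filter at 10 CPM it was 21 of 166, against 430 of 9322. With each library left out, 61 to 127 of 500 to 1029 members were called, against 1773 to 6053 of 29005 to 52980 sequences. The 111 calls higher in immature testis became 34 of 166 with the filter at 10 CPM, against 1782 of 9322 sequences. They became 844 of 7066 without a filter, against 57340 of 294186 sequences. With each library left out they were 144 to 168, against 8943 to 10094 of all sequences tested. DESeq2 gave 111 and 109 calls of 555 members, against 4033 and 6940 of 31770 sequences. The filters change how many members are tested, and the other causes were not tested. Same-numbered libraries did not deviate together (r = 0.0233, -0.0922 and 0.0223), so the numbers do not pair them. With the replicate block, 37 of 555 members were called higher in mature and 108 in immature testis, against 693 and 6791 of 31788 sequences. Among named sequences, it lost the calls of uniq_4490482 (adjusted p = 0.0547 by edgeR) and uniq_4788513 (adjusted p = 0.595). No named sequence changed direction under any alternative run. Of the 17, 8 kept their side of the threshold throughout. Most members had too few reads for a test.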
